A study of Mus musculus with 34 samples.

Results

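The acetylation of histone H3 at lysine 27 (H3K27ac) was compared between resident Kupffer cells and the repopulating liver macrophages (RLM) that were collected at 24 h of diphtheria toxin treatment. The comparison took the 2 Kupffer cell libraries and the 2 RLM libraries, 4 of the 34 chromatin immunoprecipitation sequencing (ChIP-seq) samples of the series, over all 84647 regions of the deposited table of raw tag counts. RLM carried Clec4f-cre with Rosa26iDTR, a toxin receptor allele that Cre switches on in cells that express Clec4f, the lectin gene specific to Kupffer cells in the mouse liver, and the mice had received diphtheria toxin. The sample labels give C57BL/6J as the strain of the Kupffer cells, with no treatment, whereas the series text places Kupffer cells and RLM alike in Clec4f-Cre/DTR mice. Toxin exposure therefore differed together with the cell type, as strain may have, and these cannot be told apart. The 2 libraries of blood Ly6C-high monocytes from untreated C57BL/6J mice were measured in the same table, and their levels are given beside the others as a description. The sources used here give no animal numbers, so p-values measure the spread between libraries, which may be technical.

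H3K27ac lies at active promoters and enhancers, where it is laid down by acetyltransferases that transcription factors bring to DNA. Kupffer cells are the macrophages of the liver sinusoids, which take up particles, aged red cells and lipids from the blood. When they are removed, blood monocytes enter the emptied niche and take on the Kupffer cell program step by step, under signals from endothelial, stellate and liver parenchymal cells that include Notch ligands, TGF-beta family ligands and activators of the nuclear receptor LXR. The comparison asks what such cells still lack, and what they hold in excess, 1 day after toxin.

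The libraries held 7.37 to 19.5 M tags in regions, and 80982 regions had enough tags to be tested. Levels are CPM, the tags per M tags of the TMM-scaled total, per region or, for genes, summed over the regions nearest to a gene start within 100 kb. Differences are log2 values of Kupffer cells against RLM, given with standard errors (SE). A call needed a fold of 2 or more together with an adjusted p below 0.05 (edgeR quasi-likelihood test, Benjamini-Hochberg adjustment). In simulated tables many true changes, of 2-fold above all, were not called, so a region or gene that was not called is not shown to be unchanged. Of the tested regions, 18043 (22.3%) were higher in Kupffer cells and 11283 (13.9%) were lower, and of 16749 genes 2444 (14.6%) were higher and 2142 (12.8%) were lower. The 2 Kupffer cell libraries did not overlap the 2 RLM libraries at 74.3% of all tested regions and 76.8% of all tested genes, so separation of the libraries alone was common. Scaling by total tags shifted the median difference of all genes from -0.07 to -0.40 and left 1549 genes higher and 3528 lower, so the share of called genes that were higher went from 53.3% to 30.5%. A block of satellite repeats on chromosome 2 held 8.95% and 9.12% of RLM tags, 2.22% and 1.74% of Kupffer cell tags and 4.67% and 3.95% of monocyte tags, and its part in that shift was not tested.

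The promoters below show the kinds of genes that the comparison set apart. Each is the 250 bases before an annotated start in RefSeq (GRCm38.p6, the assembly named mm10 in the files), written 5′ to 3′. Nr1d1 and Tmem37 had the largest differences in CPM among higher promoters with a sequence, and Gabpb1 and Fubp1 among lower ones. Clec1b, F10 and Gpnmb were added after their values were seen, as a Kupffer cell lectin gene, a gene of monocytes and a gene highest in RLM. Capitals mark matches to the motifs described with the sequence results, on either strand.
Nr1d1 (chr11:98775378-98775627, - strand): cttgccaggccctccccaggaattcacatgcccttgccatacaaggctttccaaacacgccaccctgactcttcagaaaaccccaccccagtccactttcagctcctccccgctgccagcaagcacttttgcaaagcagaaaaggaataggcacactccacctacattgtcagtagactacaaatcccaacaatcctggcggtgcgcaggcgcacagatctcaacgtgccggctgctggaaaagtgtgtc
Tmem37 (chr1:120073781-120074030, - strand): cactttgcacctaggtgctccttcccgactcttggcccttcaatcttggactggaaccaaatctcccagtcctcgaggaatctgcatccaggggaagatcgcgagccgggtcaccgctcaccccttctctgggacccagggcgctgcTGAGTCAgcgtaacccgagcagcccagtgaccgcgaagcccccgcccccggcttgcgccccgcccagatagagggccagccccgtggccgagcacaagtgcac
Clec1b (chr6:129397047-129397296, + strand): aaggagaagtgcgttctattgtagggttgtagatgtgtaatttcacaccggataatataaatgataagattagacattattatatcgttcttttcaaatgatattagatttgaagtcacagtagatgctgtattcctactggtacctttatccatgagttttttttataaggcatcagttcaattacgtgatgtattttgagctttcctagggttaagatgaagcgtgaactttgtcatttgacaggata
Gabpb1 (chr2:126675353-126675602, - strand): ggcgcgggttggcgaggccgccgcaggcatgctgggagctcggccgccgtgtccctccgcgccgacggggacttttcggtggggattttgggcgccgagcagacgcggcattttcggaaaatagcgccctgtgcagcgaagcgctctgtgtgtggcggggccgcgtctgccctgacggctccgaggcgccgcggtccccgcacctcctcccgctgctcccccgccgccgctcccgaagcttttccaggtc
Fubp1 (chr3:152210172-152210421, + strand): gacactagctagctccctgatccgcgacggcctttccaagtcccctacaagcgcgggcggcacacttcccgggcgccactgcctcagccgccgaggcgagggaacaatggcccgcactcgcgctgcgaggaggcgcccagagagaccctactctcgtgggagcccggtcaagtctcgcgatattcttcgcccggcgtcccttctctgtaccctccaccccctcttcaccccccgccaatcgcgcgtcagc
F10 (chr8:13037058-13037307, + strand): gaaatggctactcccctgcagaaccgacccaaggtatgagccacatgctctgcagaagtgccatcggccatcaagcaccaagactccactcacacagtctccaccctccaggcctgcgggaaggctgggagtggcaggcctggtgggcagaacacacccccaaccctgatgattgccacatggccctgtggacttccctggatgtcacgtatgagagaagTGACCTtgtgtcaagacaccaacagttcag
Gpnmb (chr6:49036268-49036517, + strand): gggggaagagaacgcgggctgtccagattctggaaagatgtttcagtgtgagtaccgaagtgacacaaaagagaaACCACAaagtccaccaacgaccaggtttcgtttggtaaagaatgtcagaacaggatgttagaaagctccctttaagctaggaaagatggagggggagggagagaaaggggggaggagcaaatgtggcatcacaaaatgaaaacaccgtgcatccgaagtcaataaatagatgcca

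Kupffer cells held far more H3K27ac than RLM at a small number of very strong promoters. The region over the Clec1b promoter (chromosome 6, 129396576 to 129398576) held 70.5 and 101 CPM in Kupffer cells, 3.15 and 1.93 in RLM and 1.98 and 0.413 in monocytes (log2 difference 5.10, SE 0.32). Clec1b encodes CLEC-2, the podoplanin receptor of platelets and Kupffer cells. RLM and monocytes were both near the bottom of the range there. At Tmem37 (chromosome 1, 120073179 to 120075179), which encodes a small membrane protein related to calcium channel subunits, the levels were 86.7 and 120.1 CPM in Kupffer cells, 16.8 and 21.8 in RLM and 2.56 and 2.64 in monocytes (log2 difference 2.42, SE 0.22). RLM stood between monocytes and Kupffer cells, as they did at the next 3 promoters. The promoter of Il18bp (chromosome 7, 102017251 to 102019251), whose product neutralises interleukin 18, held 80.8 and 109 CPM in Kupffer cells, 17.7 and 14.1 in RLM and 3.55 and 4.87 in monocytes (log2 difference 2.58, SE 0.23). In Il1a (chromosome 2, 129308202 to 129310202), the gene of interleukin 1 alpha, the intron region beside the start held 71.7 and 101 CPM in Kupffer cells, 8.28 and 8.03 in RLM and 1.24 and 0.908 in monocytes (log2 difference 3.40, SE 0.25). Zbtb4 (chromosome 11, 69765507 to 69767507), which encodes a zinc finger protein that binds methylated DNA, had 92.8 and 101 CPM in Kupffer cells, 20.9 and 22.8 in RLM and 10.4 and 13.6 in monocytes (log2 difference 2.15, SE 0.22). The largest difference in CPM was at Nr1d1 (chromosome 11, 98774442 to 98776442), the clock repressor REV-ERB alpha, with 107 and 166 CPM in Kupffer cells, 50.3 and 42.0 in RLM and 28.9 and 36.7 in monocytes (log2 difference 1.57, SE 0.21). In each of these 6 regions both Kupffer cell libraries exceeded all 4 other libraries, though exceeding the RLM libraries was part of the rule that chose them.

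Away from promoters, the strongest gains of Kupffer cells over RLM were at enhancer-like regions more than 3 kb from a start. A region in the first intron of Sdc3 (chromosome 4, 130795131 to 130797131), which encodes the heparan sulfate carrier syndecan 3, held 77.9 and 124 CPM in Kupffer cells, 8.01 and 9.35 in RLM and 0.992 and 1.07 in monocytes (log2 difference 3.54, SE 0.25). RLM had reached only a small part of the Kupffer cell level, though they were well above monocytes. Near Nt5dc3 (chromosome 10, 86884889 to 86886889) the levels were 66.0 and 113 CPM in Kupffer cells, 1.71 and 1.63 in RLM and 1.74 and 0.578 in monocytes (log2 difference 5.74, SE 0.33). The authors' annotation places that region, 107 kb from the Nt5dc3 start, in an intron of Stab2, a scavenger receptor gene of sinusoidal endothelium that was itself called higher when summed over its own regions (2.47, SE 0.21). An intergenic region whose nearest annotated gene was Utp6 (chromosome 11, 79869684 to 79871684) held 70.0 and 112 CPM in Kupffer cells, 3.42 and 2.54 in RLM and 1.65 and 0.908 in monocytes (log2 difference 4.95, SE 0.29). In both of the last regions RLM lay close to monocytes. Regions nearest to Rap1b, a small GTPase gene of integrin signalling, Kif21b, a kinesin gene, and Mir29b-1 were higher by 2.58 (SE 0.22), 2.64 (SE 0.22) and 2.21 (SE 0.22). At Rap1b the monocyte libraries (28.8 and 36.2 CPM) lay above the RLM libraries (18.8 and 20.7).

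The lower promoters with the largest differences in CPM, a choice that favours strong regions, were strong in every group and 2- to 3-fold apart. Most lower promoters were weaker and further apart: the 2327 of them had a median of 3.22 and 2.46 CPM in Kupffer cells, 10.1 and 10.1 in RLM and 11.3 and 12.5 in monocytes, and a median log2 difference of -1.58. The promoter of Gabpb1 (chromosome 2, 126673887 to 126675887), a subunit of the ETS factor GABP, held 87.4 and 87.0 CPM in Kupffer cells, 192 and 171 in RLM and 123 and 138 in monocytes (log2 difference -1.06, SE 0.19). At Fubp1 (chromosome 3, 152209969 to 152211969), a DNA-binding regulator of Myc, the levels were 80.7 and 80.3 CPM in Kupffer cells, 169 and 168 in RLM and 107 and 95.2 in monocytes (log2 difference -1.07, SE 0.19). The authors' annotation places that region at the start of Dnajb4, the heat shock cochaperone gene next to Fubp1, so the 2 promoters are not separated. RLM exceeded monocytes as well as Kupffer cells at both regions. Other lower promoters of this rank were Efcab2 (log2 difference -1.02, SE 0.19) and the shared start of Epc1, a subunit of the NuA4 acetyltransferase complex, and Mir1893 (-1.30, SE 0.19 and -1.31, SE 0.19). Gabpb1 was at -0.95 without RLM replicate 1, and Efcab2 at -0.81 without Kupffer cell replicate 1 and -0.92 without RLM replicate 2, and so lost their calls.

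Lower distal regions chosen in the same way had log2 differences of -1.20 to -2.45. An intron region of Sgms1 (chromosome 19, 32180396 to 32182396), which encodes sphingomyelin synthase 1, held 9.66 and 9.68 CPM in Kupffer cells, 56.6 and 49.1 in RLM and 54.7 and 75.6 in monocytes (log2 difference -2.45, SE 0.23). A region upstream of Ly9 (chromosome 1, 171616114 to 171618114), a receptor gene of the SLAM family, had 14.5 and 18.9 CPM in Kupffer cells, 64.9 and 56.2 in RLM and 36.3 and 51.5 in monocytes (log2 difference -1.84, SE 0.22). Near Ly6c2 (chromosome 15, 75085357 to 75087357), the gene of the Ly6C antigen by which the monocytes were sorted, the levels were 48.5 and 56.1 CPM in Kupffer cells, 153 and 149 in RLM and 95.1 and 90.1 in monocytes (log2 difference -1.52, SE 0.19). RLM thus held more than monocytes at that region, and Kupffer cells held less than either. Tex44 (chromosome 1, 86441606 to 86443606) showed the same order, with 26.3 and 26.0 CPM in Kupffer cells, 81.6 and 83.9 in RLM and 40.1 and 42.5 in monocytes (log2 difference -1.66, SE 0.21). Bicral, a subunit of a SWI/SNF remodelling complex, lay nearest to the lower distal region with the largest difference in CPM (chromosome 17, 46856220 to 46858220), which held 94.4 and 92.2 CPM in Kupffer cells, 198 and 231 in RLM and 175 and 184 in monocytes (log2 difference -1.20, SE 0.19). The remaining region of this rank lay in Rn45s, the ribosomal RNA repeat, where tags from many copies are counted together.

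**Figure D1:**
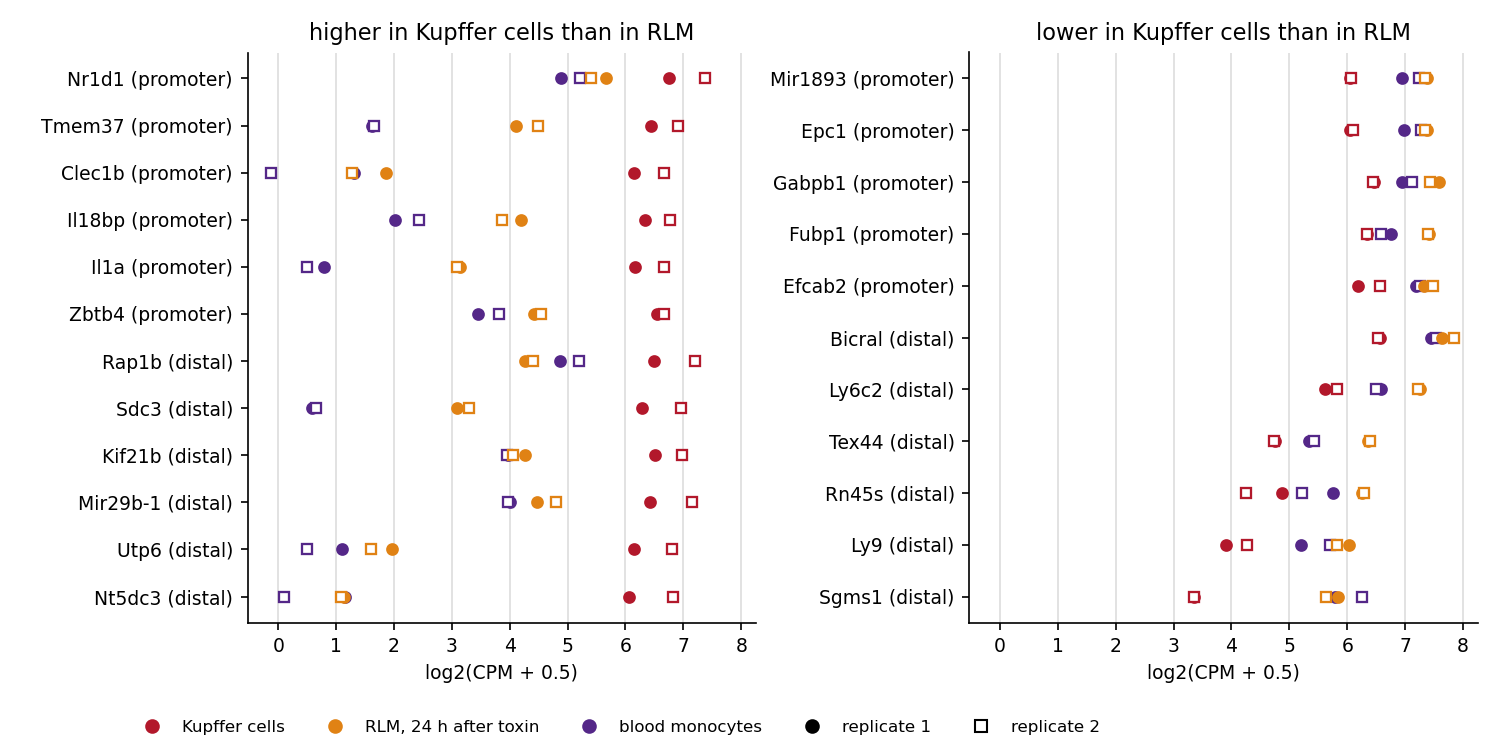
H3K27ac of 23 named regions in each library, on the log2(CPM + 0.5) scale, for regions higher (left) and lower (right) in Kupffer cells than in RLM; filled circles are replicate 1 and open squares replicate 2. The regions were chosen among those whose Kupffer cell and RLM libraries do not overlap, so their separation in every row follows from the choice. The right-hand promoters, chosen for their difference in CPM, differ by 2- to 3-fold, while Clec1b, Utp6 and Nt5dc3 differ by over 30-fold.

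The regions higher in Kupffer cells were strong and those lower were mostly weak. Higher regions had a median of 13.2 and 15.3 CPM in the Kupffer cell libraries, 3.42 and 3.35 in RLM and 2.73 and 2.56 in monocytes. Lower regions had a median of 0.715 and 0.587 CPM in Kupffer cells, 2.76 and 2.74 in RLM and 3.14 and 2.97 in monocytes, which came to 6 and 10 tags in Kupffer cells and 21 and 27 in RLM. Of the higher regions 16009 (88.7%) reached a mean of 5 CPM in Kupffer cells, while 3034 of the lower regions (26.9%) reached it in RLM. At 20 CPM the numbers were 6520 and 1146. What RLM still lacked was therefore mainly strong Kupffer cell signal, and most regions with an excess in RLM were weak in every group. Folds of 2 to 4 made up 62.2% of higher and 50.9% of lower calls, and folds of over 32 made up 122 higher and 66 lower regions. Without Kupffer cell replicate 2, the deepest library, the lower regions numbered 5332 and the higher 14017.

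**Figure D2:**
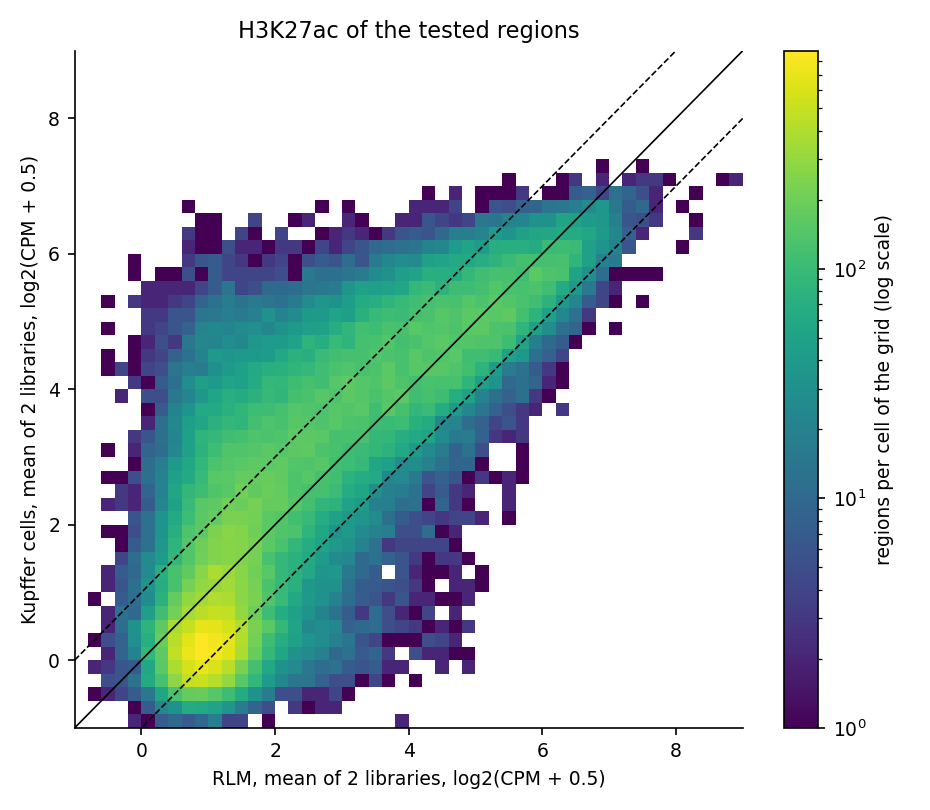
Mean H3K27ac of Kupffer cells (vertical) against RLM (horizontal) for the 80982 tested regions, on the log2(CPM + 0.5) scale, with colour giving the number of regions per cell of the grid; the solid line marks equal levels and the dashed lines 2-fold differences. Regions spread far above the upper line at Kupffer cell levels of 5 to 100 CPM, and the densest part of the plot lies at low levels near the lower line.

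Promoters differed less often than distal regions. Among 20574 regions within 1 kb of a start, 9.54% were higher in Kupffer cells and 11.3% lower, and among 53375 distal regions 26.4% were higher and 15.3% lower. The share of higher regions went from 29.3% at 3 to 10 kb to 20.8% beyond 100 kb, while that of lower regions went from 13.2% to 18.0%. Introns held 50.7% of the higher regions against 41.1% of all tested regions, and CpG island annotations had 6.75% higher and 15.2% lower. The calls were also counted by the lists of the authors' peaks, readable from the region names. By their names these lists come from the same cell groups. A match with the calls can follow from the same signal and is no separate support. Of 14076 regions named in the Kupffer cell list alone, 44.4% were higher and 3.38% lower. Of 8855 named in the monocyte list and in the list taken from its name to be that of RLM, but not in the Kupffer cell list, 33.9% were lower and 4.81% higher. Of the 35411 regions in all 3 lists, 20.6% were higher and 9.23% lower, and these made up 40.5% of all higher calls. Many regions that RLM and monocytes already carried thus held at least 2-fold more H3K27ac in Kupffer cells.

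**Figure D3:**
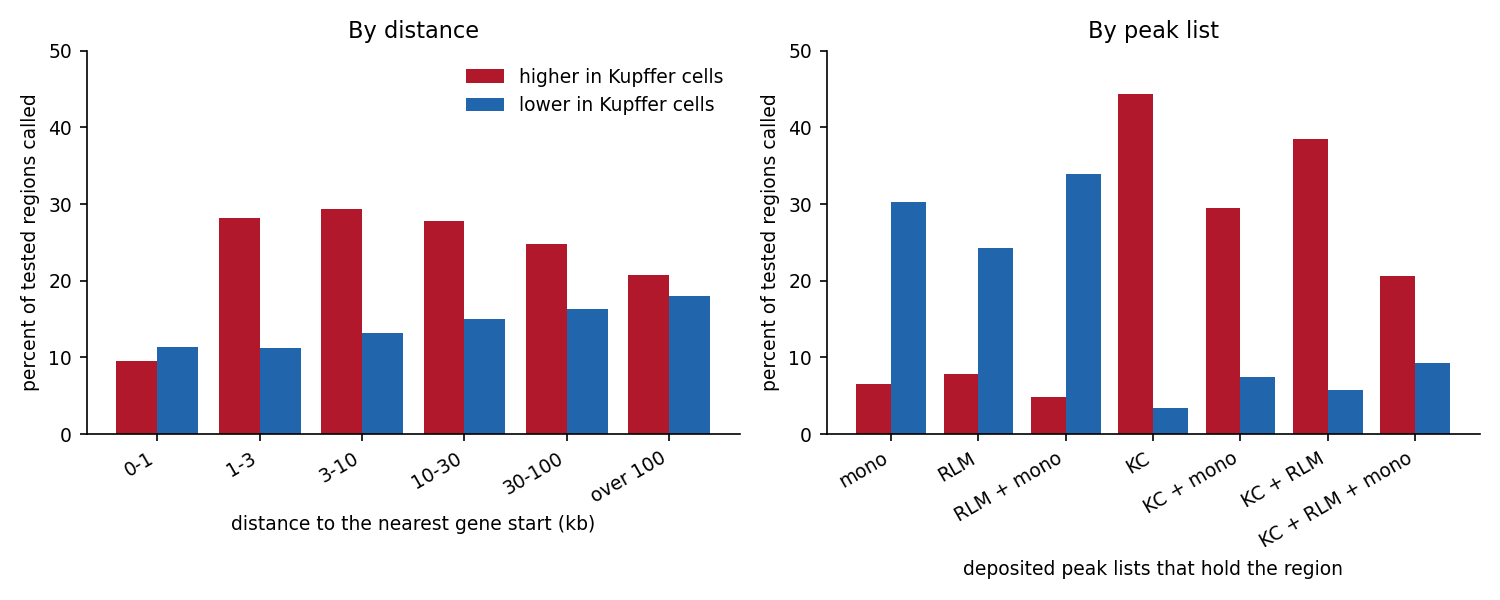
Percent of tested regions called higher (red) or lower (blue) in Kupffer cells than in RLM, by distance to the nearest gene start (left, kb) and by the deposited peak lists that name the region (right; KC, Kupffer cells; mono, monocytes). Near starts the lower share (11.3%) exceeds the higher share (9.54%), and from 1 kb outward the higher share is larger in every band. The peak lists are named for the same cell groups as the libraries, so the right panel is no separate support.

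Higher regions also lay in long unbroken runs, in which every tested region was called in the same direction and neighbours were at most 10 kb apart. There were 2334 higher and 880 lower runs of at least 3 regions, 219 and 76 of them over 20 kb. The longest higher run covered 63.6 kb at Sh3bp5 (chromosome 14, 31373556 to 31437176), an inhibitor and scaffold gene of BTK and JNK signalling. Its 20 regions averaged 31.1 and 38.3 CPM in Kupffer cells, 6.54 and 6.31 in RLM and 6.87 and 5.68 in monocytes. The next were at Batf3 (59.5 kb), a factor of dendritic cells and macrophages, at Capzb (57.9 kb), an actin capping subunit, and at Rgl1 (55.2 kb), a Ral exchange factor. At Timd4 (chromosome 11, 46792098 to 46849354), whose product TIM-4 binds phosphatidylserine on dying cells, all 12 regions of a 57.3 kb run were higher. They averaged 19.0 and 20.9 CPM in Kupffer cells, 1.34 and 1.11 in RLM and 1.18 and 0.757 in monocytes, so RLM and monocytes were both near 1 CPM across the whole run. At Rgl1 the RLM libraries averaged 4.34 and 5.01 CPM, above the 1.35 and 1.19 of monocytes and below the 19.2 and 22.4 of Kupffer cells.

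The 5 longest lower runs did not reach the length of the 5 longest higher ones, although the medians over all runs were alike (7.75 and 7.68 kb), and 4 of them averaged under 4 CPM in Kupffer cells. Sgms1 (chromosome 19, 32169344 to 32212032) had a run of 14 regions over 42.7 kb that averaged 3.83 and 3.84 CPM in Kupffer cells, 23.3 and 21.6 in RLM and 20.5 and 29.6 in monocytes. RLM and monocytes overlapped there. The longest lower run, 44.4 kb at Gabbr2 (chromosome 4, 46884959 to 46929324), a subunit gene of the GABA-B receptor, averaged 0.375 and 0.285 CPM in Kupffer cells, 4.88 and 3.80 in RLM and 6.94 and 7.05 in monocytes. Plec, the cytoskeletal linker plectin, had 43.0 kb with 0.954 and 0.525 CPM in Kupffer cells, 4.28 and 4.65 in RLM and 10.6 and 8.82 in monocytes, and Gm15413 had 37.4 kb with 0.387 and 0.396 CPM in Kupffer cells, 4.96 and 4.34 in RLM and 5.70 and 6.73 in monocytes. The run named after Mir101c (38.4 kb, chromosome 9 from 2999116) lies at the start of that chromosome's sequence and averaged 17.9 and 19.8 CPM in Kupffer cells, 69.0 and 68.7 in RLM and 36.7 and 33.4 in monocytes. Of 68 tested regions annotated as satellite repeats, 54 were lower in Kupffer cells and 3 higher, with medians of 13.7 and 14.4 CPM in Kupffer cells and 41.5 and 39.8 in RLM. The part of repeats in the lower runs was not tested.

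**Figure D4:**
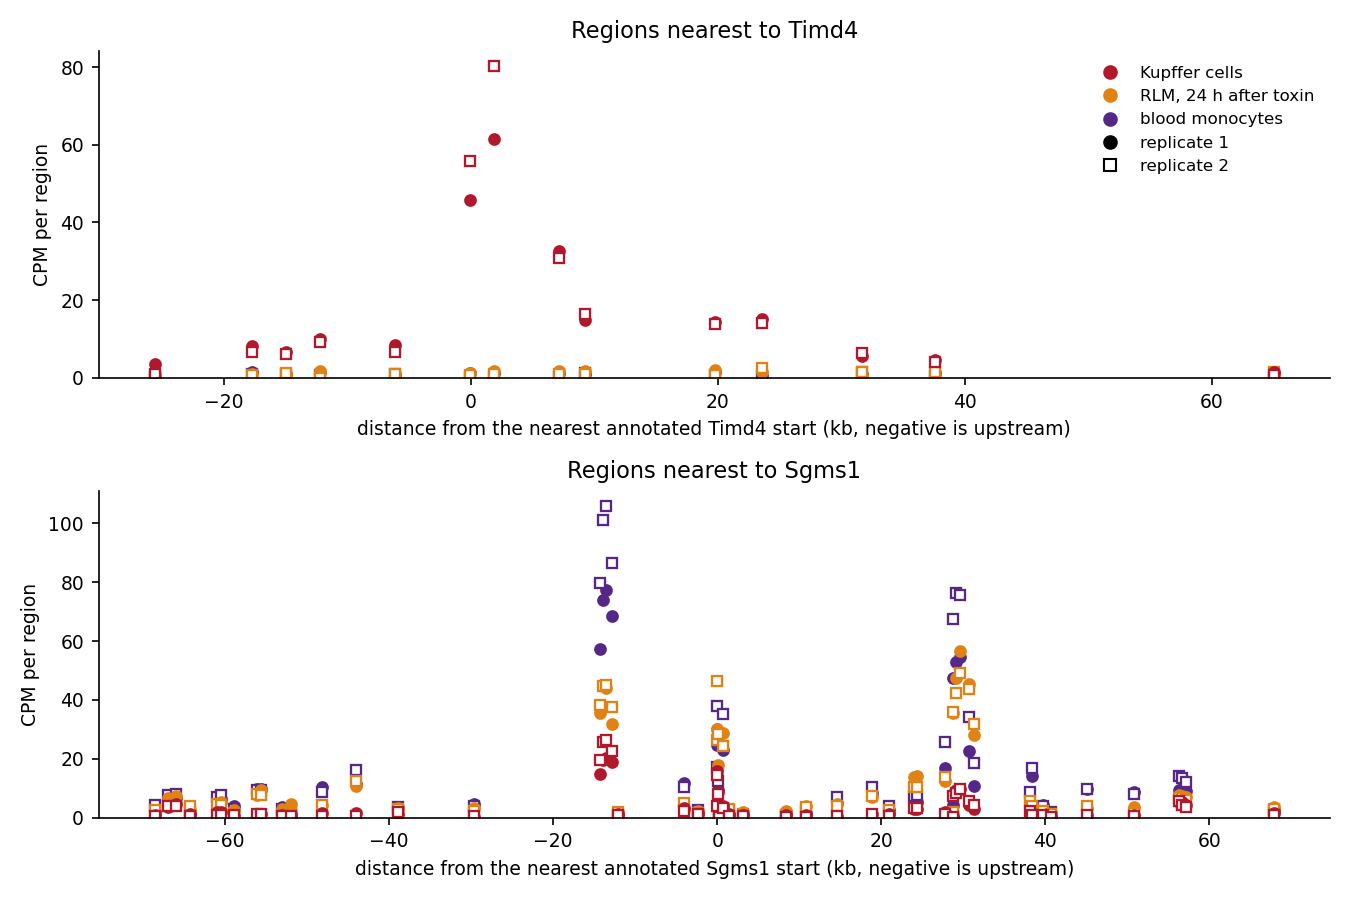
H3K27ac (CPM per region) against distance from the nearest annotated start (kb) for the regions nearest to Timd4 (top) and Sgms1 (bottom), with each library as a point; filled circles are replicate 1 and open squares replicate 2. At Timd4 the Kupffer cell libraries reach 80.2 CPM while RLM and monocytes stay near 0. At Sgms1 the Kupffer cell libraries lie below RLM and monocytes at most regions. At the region 0.042 kb upstream of an Sgms1 start, Kupffer cells (16.0 and 14.5 CPM) overlap monocytes (14.1 and 17.2), and groups also overlap at some weak regions.

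Near some genes Kupffer cells had both gained and lost regions against RLM. Of 8831 genes with a called region within 100 kb, 1150 had regions called in each direction. At Cd93, a lectin-like receptor gene of monocytes and endothelium, 6 regions were higher and 8 lower. The region at its first exon (chromosome 2, 148441805 to 148443805) held 1.31 and 0.469 CPM in Kupffer cells, 26.5 and 31.8 in RLM and 8.60 and 8.17 in monocytes (log2 difference -5.21, SE 0.38). A region 78.7 kb upstream (chromosome 2, 148521270 to 148523270) held 16.7 and 20.2 CPM in Kupffer cells, 3.94 and 5.99 in RLM and 41.9 and 42.3 in monocytes (1.88, SE 0.27). Summed over the gene the difference was -0.31 (adjusted p = 0.0776) and was not called, and the monocyte level at the upstream region exceeded both liver groups. Csrp1, a LIM domain gene, had 7 regions in each direction. Beside its start (chromosome 1, 135728514 to 135730514) the levels were 42.6 and 45.0 CPM in Kupffer cells, 4.73 and 4.98 in RLM and 11.4 and 11.1 in monocytes (3.17, SE 0.27), and 31.9 kb upstream (chromosome 1, 135687188 to 135689188) they were 3.82 and 2.35 CPM in Kupffer cells, 13.4 and 10.9 in RLM and 19.2 and 17.7 in monocytes (-2.03, SE 0.32).

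Runx1, a core factor of blood cell development, showed the same division at stronger regions. An intergenic region 41.3 kb upstream (chromosome 16, 92866408 to 92868408) held 48.0 and 73.6 CPM in Kupffer cells, 19.8 and 17.2 in RLM and 17.9 and 29.1 in monocytes (1.73, SE 0.24). The region over the first exon of a shorter transcript (chromosome 16, 92695833 to 92697833) held 13.9 and 16.8 CPM in Kupffer cells, 30.1 and 32.9 in RLM and 20.5 and 29.5 in monocytes (-1.03, SE 0.24), a call that was lost without Kupffer cell replicate 1 (-0.88) or RLM replicate 2 (-0.94). At Lrrc8d, a subunit gene of volume-regulated anion channels, 7 regions were higher and 16 lower of 42, and the sum was not called (-0.12, adjusted p = 0.501, with 496 and 476 CPM in Kupffer cells and 515 and 539.9 in RLM). Asap1, an ARF GTPase activator gene, had 6 higher and 11 lower regions, with a promoter region at 0.596 and 0.293 CPM in Kupffer cells and 5.65 and 5.49 in RLM (-3.75, SE 0.53). Gm19510, Nedd4l and Rgs3 had 6 to 8 regions in each direction. Of these 8 genes, Csrp1 alone was called when its regions were summed (1.41).

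Promoters and distal regions of the same gene mostly moved together. Of 837 genes with a higher promoter, 70.3% had a higher distal region and 17.8% a lower one. For 939 genes with a lower promoter these shares were 14.9% and 58.8%. The 5970 genes whose promoter was tested but not called had 39.3% and 28.1%, so distal calls were common where the promoter was not called. The 3 sets had a median of 4, 3 and 2 distal regions per gene, and more regions give more chances of a call. The median over genes of their median distal log2 difference was 1.01, -1.08 and -0.003.

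Kupffer cell identity genes came first among gene groups. All list and marker counts are to be read beside the 14.6% higher and 12.8% lower of all genes. By total tags, 1549 of all 16749 genes were higher and 3528 lower. Of the 18 Kupffer cell markers 16 were higher and 0 lower (15 and 0 when scaled by total tags), and their summed level was 3530 and 4042 CPM in Kupffer cells, 645 and 645 in RLM and 236 and 197 in monocytes. A ranking took in 1332 of the genes that were called higher while RLM lay within 2-fold of monocytes. Fam167a, a gene of unclear role in macrophages, led it, with 255 and 291 CPM in Kupffer cells, 8.49 and 6.48 in RLM and 3.41 and 6.25 in monocytes (log2 difference 5.20, SE 0.23). Pcolce2, an enhancer of collagen processing, had 269 and 342 CPM in Kupffer cells, 10.2 and 12.5 in RLM and 8.61 and 4.82 in monocytes (4.74, SE 0.22). Ptprm, a receptor phosphatase gene of cell adhesion, had 828 and 996 CPM in Kupffer cells, 34.2 and 34.5 in RLM and 28.5 and 23.1 in monocytes (4.73, SE 0.18). The leptin receptor gene Lepr had 226 and 257 CPM in Kupffer cells, 11.7 and 15.1 in RLM and 7.76 and 5.66 in monocytes (4.16, SE 0.20). In these 4 genes RLM were nearer to monocytes than to Kupffer cells in every library. Cd207 and Cdh5 were at 3.64 to 7.07 CPM in all Kupffer cell and RLM libraries and were not called.

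Among higher genes the position of RLM was described by 2-fold bands of the group means, with 0.5 CPM added. Of the 2444 higher genes, RLM lay within 2-fold of monocytes in 2001 (81.9%), at least 2-fold above them in 300 (12.3%) and at least 2-fold below in 143 (5.85%). Uncalled genes had 90.0%, 5.25% and 4.78%. Genes on which RLM had moved up yet stayed short of Kupffer cells included Sema6d, a semaphorin gene, with 694 and 786 CPM in Kupffer cells, 113 and 88.1 in RLM and 40.7 and 28.6 in monocytes (2.88, SE 0.17), and Adrb1, the beta-1 adrenergic receptor gene, with 667 and 732 CPM in Kupffer cells, 90.2 and 113 in RLM and 30.5 and 31.7 in monocytes (2.78, SE 0.16). Cd5l, which encodes the lipid-binding apoptosis inhibitor AIM, had 445 and 538 CPM in Kupffer cells, 64.5 and 75.2 in RLM and 25.1 and 23.3 in monocytes (2.81, SE 0.16). At all 3 the order was monocytes, RLM, Kupffer cells without overlap.

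The transcription factors of Kupffer cells were higher where they were called. Of 20 listed factors 8 were higher and 0 lower (4 and 1 by total tags). Rxra, the shared partner of LXR and other nuclear receptors, had 613 and 688 CPM in Kupffer cells, 149 and 137 in RLM and 86.3 and 83.9 in monocytes (2.19, SE 0.15, adjusted p = 1.59e-13). Id3, a target of TGF-beta family signals and a determinant of Kupffer cells, had 661 and 751 CPM in Kupffer cells, 213 and 227 in RLM and 79.4 and 67.9 in monocytes (1.68, SE 0.15). Nr1h3, which encodes LXR alpha, had 157 and 172 CPM in Kupffer cells, 57.3 and 62.1 in RLM and 13.1 and 15.9 in monocytes (1.46, SE 0.17), and RLM stood between the other groups at each of these 3 genes. Spic, a factor of iron-recycling macrophages, had 172 and 191 CPM in Kupffer cells, 75.4 and 72.6 in RLM and 4.94 and 3.38 in monocytes (1.29, SE 0.17). Total tags did not keep the call of Spic (0.97). Klf2 was different in that monocytes (270.1 and 223 CPM) lay above RLM (100.3 and 113) and below Kupffer cells (314 and 353). Hes1, Zeb2 and Id2 were not called, at 0.27, 0.35 and 0.62. For Id2, a factor of tissue macrophages and lymphoid cells, RLM (373 and 421 CPM) were already close to Kupffer cells (523 and 698), with monocytes at 36.5 and 40.9. Rbpj, the DNA-binding partner of Notch, was at -0.84 (SE 0.16), short of 2-fold, and was the lower gene by total tags.

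Factors of monocytes and of stimulated cells split. Of 27 genes 2 were higher and 6 lower (1 and 6 by total tags), or 7.41% and 22.2% against 14.6% and 12.8% of all genes. Tal1, a factor of blood stem cells and the red cell lineage, had 6.23 and 3.70 CPM in Kupffer cells, 51.8 and 45.3 in RLM and 36.6 and 47.8 in monocytes (-3.36, SE 0.25). Runx3, which acts in lymphocytes and myeloid cells, had 17.7 and 14.9 CPM in Kupffer cells, 119.6 and 117 in RLM and 125 and 133 in monocytes (-2.87, SE 0.18), Runx2 was at -2.59, and Myb, a progenitor factor, at -2.76. Kupffer cells were low at these 4 genes, and RLM were nearer to monocytes than to Kupffer cells. Cebpb, a factor of inflammatory macrophages, was lower at 82.2 and 40.3 CPM in Kupffer cells, 169 and 181 in RLM and 217 and 182 in monocytes (-1.54, SE 0.24). Nr4a1, an early response nuclear receptor gene of patrolling monocytes, was higher in Kupffer cells, at 388 and 433 CPM in Kupffer cells, 152 and 168 in RLM and 349 and 378 in monocytes (1.36, SE 0.15), where RLM were the lowest group. Irf4 was higher by 1.06, a call that total tags did not keep. Klf6, Jun, Bach1, Egr2 and Cebpd lay within 0.10 of 0.

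Receptors for clearance and recognition had the largest share of higher genes among the 16 lists plotted, 21 of 37 with 2 lower (20 and 2 by total tags), and a median of 1.35 against -0.07 for all genes. Clec4f had 218 and 279 CPM in Kupffer cells, 9.20 and 10.9 in RLM and 5.88 and 4.90 in monocytes (4.62, SE 0.21) and Timd4 277 and 279.6 CPM in Kupffer cells, 19.0 and 17.0 in RLM and 16.0 and 9.63 in monocytes (3.95, SE 0.20). The ficolin gene Fcna, a lectin that starts complement, had 64.0 and 70.0 CPM in Kupffer cells, 5.94 and 3.84 in RLM and 1.70 and 1.52 in monocytes (3.80, SE 0.25). Mrc1, the mannose receptor gene, was higher by 2.88, and the scavenger receptor genes Stab2, Marco, Stab1 and Msr1 by 2.47, 2.36, 1.49 and 1.33. Among receptors for dying cells, Axl had 115 and 106 CPM in Kupffer cells, 37.2 and 26.6 in RLM and 8.69 and 8.79 in monocytes (1.80, SE 0.19) and Mertk 315 and 369 CPM in Kupffer cells, 126 and 121 in RLM and 15.6 and 13.1 in monocytes (1.47, SE 0.16). Cd36 (0.51) and Scarb1 (0.76) did not reach 2-fold. The 2 lower genes were the C-type lectin receptors of fungal and mycobacterial ligands Clec4e, with 5.52 and 2.79 CPM in Kupffer cells, 22.4 and 41.2 in RLM and 55.4 and 59.9 in monocytes (-3.05, SE 0.30), and Clec4d (-1.03). Both followed the order monocytes, RLM, Kupffer cells from high to low.

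Genes of lipid metabolism were mostly higher where they were called. Of 33 genes of cholesterol and fatty acid metabolism 14 were higher and 1 lower (9 and 2 by total tags). The higher members included enzymes of prostanoid and leukotriene synthesis and breakdown. Ptgis, prostacyclin synthase, had 185 and 192 CPM in Kupffer cells, 17.1 and 16.7 in RLM and 14.9 and 15.5 in monocytes (3.48, SE 0.19), Ptgs1, cyclooxygenase 1, had 410.5 and 379 CPM in Kupffer cells, 65.0 and 55.9 in RLM and 26.5 and 28.1 in monocytes (2.71, SE 0.16), and Hpgd, Ltc4s and Hpgds were higher by 2.57, 2.38 and 1.78. The apolipoprotein gene Apoc1 had 213 and 287 CPM in Kupffer cells, 9.91 and 19.1 in RLM and 17.7 and 13.6 in monocytes (4.09, SE 0.24). At the cholesterol exporters RLM were far above monocytes. Abca1 had 827 and 962 CPM in Kupffer cells, 390.3 and 417 in RLM and 53.5 and 49.8 in monocytes (1.15, SE 0.15), and Abcg1, at 0.88, SE 0.15, was not called.

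Genes of lipid-associated macrophages, a state described in fatty and injured tissue, moved both ways. Of 28 genes 6 were higher and 8 lower (2 and 9 by total tags), or 21.4% and 28.6% against 14.6% and 12.8% of all genes. The transmembrane glycoprotein gene Gpnmb had 13.9 and 6.95 CPM in Kupffer cells, 57.6 and 63.3 in RLM and 17.7 and 13.7 in monocytes (-2.60, SE 0.25), and the tetraspanin gene Cd63 2.26 and 1.62 CPM in Kupffer cells, 18.5 and 13.7 in RLM and 4.52 and 4.06 in monocytes (-3.09, SE 0.36). Emp1, an epithelial membrane protein gene, had 5.24 and 4.29 CPM in Kupffer cells, 18.7 and 23.6 in RLM and 9.29 and 7.69 in monocytes (-2.17, SE 0.29). RLM were the highest of the 3 groups in every library at these 3 genes. Hvcn1, a proton channel gene, was lower at -2.34, Fabp4 at -1.96, Spp1, osteopontin, at -1.85 and Fabp5 at -1.77, with Kupffer cells at 1.84 to 15.0 CPM and RLM at 6.81 to 46.8 CPM over these 4. Trem2, which defines that state, was at -0.63, SE 0.21 and not called, with 26.3 and 24.7 CPM in Kupffer cells and 32.4 and 46.3 in RLM. The higher members were regulators and enzymes of the lysosome, namely Mitf (1.63), Atp6v0d2 (1.43), Lipa (1.25) and Ctsd (1.04), with Lpl and Tyrobp.

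RLM also stood above both other groups at genes outside the list of lipid-associated macrophages. Of the 2142 lower genes, 180 (8.40%) had RLM at least 2-fold above monocytes, against 5.25% of uncalled genes. In 207 (9.66%) RLM were at least 2-fold below monocytes, against 4.78% of uncalled genes. Lower genes were called on the same RLM libraries, so the choice itself can raise the first share, and no conclusion is drawn from it. Of the 180 genes, 28 had at least 20 CPM in RLM and a symbol that is not a predicted or microRNA gene. Gpnmb and Emp1 of that list were among them. Astl, a metalloprotease gene known from eggs, had 6.37 and 5.98 CPM in Kupffer cells, 87.7 and 69.2 in RLM and 15.5 and 13.9 in monocytes (-3.67, SE 0.23). Gpa33, a cell surface antigen gene, had 11.7 and 7.60 CPM in Kupffer cells, 69.1 and 63.4 in RLM and 23.4 and 18.8 in monocytes (-2.82, SE 0.23), and Foxp4, a forkhead factor gene, 4.95 and 2.21 CPM in Kupffer cells, 28.2 and 21.4 in RLM and 9.03 and 11.5 in monocytes (-2.90, SE 0.32). Slc16a1, the lactate carrier MCT1, had 24.8 and 18.9 CPM in Kupffer cells, 66.4 and 77.7 in RLM and 25.4 and 39.0 in monocytes (-1.74, SE 0.21). Suz12, a subunit of the Polycomb complex PRC2, had 36.6 and 31.8 CPM in Kupffer cells, 105 and 102 in RLM and 43.3 and 53.8 in monocytes (-1.60, SE 0.18). At each of the 5, both RLM libraries exceeded the other 4. Their levels relative to monocytes are a description without a test.

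RLM lay within 2-fold of monocytes in 1755 of the 2142 lower genes (81.9%). This position was more common still among uncalled genes (90.0%), so it does not set the lower genes apart. Myo5a, the motor myosin Va, had 5.52 and 4.03 CPM in Kupffer cells, 92.8 and 72.8 in RLM and 109.8 and 145 in monocytes (-4.16, SE 0.23), and Pqlc3 had 5.52 and 2.27 CPM in Kupffer cells, 69.1 and 75.2 in RLM and 117 and 106 in monocytes (-4.36, SE 0.26). Osm, the cytokine oncostatin M, had 9.20 and 3.70 CPM in Kupffer cells, 60.6 and 82.3 in RLM and 84.2 and 83.8 in monocytes (-3.60, SE 0.29). The cystine carrier gene Slc7a11 had 8.91 and 12.1 CPM in Kupffer cells, 101 and 98.6 in RLM and 109 and 119.9 in monocytes (-3.21, SE 0.20). At these genes Kupffer cells had under 13 CPM in each library.

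Coagulation, fibrinolysis and matrix genes were evenly split, 8 higher and 8 lower of 26 (6 and 10 by total tags). Each share was 30.8%, against 14.6% and 12.8% of all genes. F10, coagulation factor X, had 1.13 and 0.585 CPM in Kupffer cells, 45.6 and 39.3 in RLM and 122 and 115 in monocytes (-5.76, SE 0.29), and fibronectin, Fn1, had 0.566 and 0.260 CPM in Kupffer cells, 9.48 and 11.6 in RLM and 50.5 and 68.4 in monocytes (-4.84, SE 0.40). F7, the neighbour of F10, was at -2.85 and the proteoglycan gene Vcan at -2.43. These genes were highest in monocytes, lower in RLM and near background in Kupffer cells, except Vcan, where Kupffer cells kept 22.4 and 18.4 CPM. The higher side held Pcolce2, Sdc3 (2.06), Procr (2.24), the endothelial protein C receptor gene, and Plau (1.51), urokinase. The receptor of urokinase, Plaur, went the other way, with 27.9 and 16.5 CPM in Kupffer cells, 89.0 and 91.1 in RLM and 194 and 208 in monocytes (-2.06, SE 0.19).

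Adhesion genes had 7 higher and 3 lower of 25 (3 and 4 by total tags), or 28.0% and 12.0% against 14.6% and 12.8% of all genes. The lower share was thus near that of all genes, and the higher share depended on the scaling. Itga9, an integrin subunit gene, had 1099.7 and 1209.7 CPM in Kupffer cells, 303 and 307 in RLM and 47.2 and 42.9 in monocytes (1.92, SE 0.15), and Vcam1 283 and 372 CPM in Kupffer cells, 77.8 and 60.5 in RLM and 39.7 and 33.7 in monocytes (2.25, SE 0.17). Alcam, the ligand of CD6, was lower at 9.76 and 10.8 CPM in Kupffer cells, 139 and 119 in RLM and 159 and 179.9 in monocytes (-3.64, SE 0.19), Itgb3 at -2.63 and Itga6 at -1.31. RLM lay slightly below monocytes at Alcam and far above them at Itga9.

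Chemokines and their receptors had 13 higher and 2 lower of 25 (9 and 3 by total tags). These shares were 52.0% and 8.0%, against 14.6% and 12.8% of all genes. Ccl24, an eosinophil attractant, had 48.7 and 72.1 CPM in Kupffer cells, 11.0 and 14.1 in RLM and 12.0 and 12.0 in monocytes (2.27, SE 0.23), Ccl12, a ligand of CCR2, 106 and 123 CPM in Kupffer cells, 19.0 and 35.6 in RLM and 9.12 and 7.10 in monocytes (2.06, SE 0.22), and Cxcl16, a ligand of CXCR6 on liver lymphocytes, 187 and 230.3 CPM in Kupffer cells, 56.8 and 59.1 in RLM and 9.72 and 17.4 in monocytes (1.85, SE 0.19). Ccr7 was higher by 1.95. The lower genes were Cxcr4, a retention receptor of bone marrow and blood cells, with 60.8 and 57.6 CPM in Kupffer cells, 151 and 182 in RLM and 229 and 268 in monocytes (-1.49, SE 0.16), and Cxcr2 (-1.20). Cx3cr1, the fractalkine receptor gene, was at -0.89, SE 0.19 and not called, and Ccr2, the receptor that brings monocytes into tissue, was at 0.86, SE 0.21 in the direction of Kupffer cells.

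Receptors for cytokines and growth factors had 6 higher and 4 lower of 34 (4 and 7 by total tags), shares of 17.6% and 11.8% that are near the 14.6% and 12.8% of all genes. After Lepr came Il21r (1.59), Csf3r (1.55) and Il13ra1 (1.39). Igf1r was lower at 35.4 and 22.3 CPM in Kupffer cells, 86.5 and 95.2 in RLM and 91.1 and 103 in monocytes (-1.68, SE 0.19). Csf1r, whose product keeps macrophages alive, was at 0.88, SE 0.15 with 228 and 222 CPM in Kupffer cells, 123 and 121 in RLM and 63.5 and 74.4 in monocytes, in the same order as the identity genes but short of 2-fold.

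Components of TGF-beta, BMP and Notch signalling had 7 higher and 4 lower of 34 (4 and 6 by total tags), or 20.6% and 11.8% against 14.6% and 12.8% of all genes. The BMP receptor gene Bmpr1a stood out, with 33.3 and 24.0 CPM in Kupffer cells, 1.84 and 3.29 in RLM and 0.426 and 0 in monocytes (3.43, SE 0.37). Acvrl1, the BMP9 and BMP10 receptor ALK1, had 113 and 125 CPM in Kupffer cells, 46.4 and 58.4 in RLM and 67.3 and 50.4 in monocytes (1.18, SE 0.18), Notch1 72.0 and 75.4 CPM in Kupffer cells, 32.0 and 30.4 in RLM and 32.1 and 22.5 in monocytes (1.24, SE 0.19) and the coactivator gene Maml2 was higher by 1.59. Adam17, a sheddase gene, was higher by 1.36. The lower genes were Tgfbr3 (-1.86), Bambi (-1.19), a decoy receptor, Eng (-1.08) and Smad4 (-1.01), the last with 40.6 and 19.6 CPM in Kupffer cells and 54.5 and 63.7 in RLM. Tgfbr1, Tgfbr2, Smad1 and Smad7 were at 0.27, 0.55, 0.66 and 0.08 and not called.

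Among genes of iron and heme, 7 were higher and 1 lower out of 21 (3 and 2 by total tags). These shares were 33.3% and 4.76%, against 14.6% and 12.8% of all genes. The haemoglobin receptor gene Cd163 had 50.7 and 67.1 CPM in Kupffer cells, 9.77 and 10.3 in RLM and 9.46 and 6.76 in monocytes (2.55, SE 0.23), and Slc40a1, the iron exporter ferroportin, 352 and 425 CPM in Kupffer cells, 93.4 and 80.6 in RLM and 18.5 and 18.3 in monocytes (2.16, SE 0.16). Blvrb, a biliverdin reductase, and Hmox1, heme oxygenase 1, were higher by 1.36 and 1.25. The genes of the storage protein ferritin, Fth1 (0.50) and Ftl1 (-0.30), were not called. Hp, haptoglobin, was lower at 1.56 and 0.649 CPM in Kupffer cells, 8.49 and 13.1 in RLM and 37.2 and 29.5 in monocytes (-3.48, SE 0.38).

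Pattern recognition receptors had 7 higher and 2 lower of 28 (6 and 4 by total tags). Nlrc4, the inflammasome adaptor for flagellin, had 262 and 335 CPM in Kupffer cells, 65.7 and 53.5 in RLM and 66.4 and 67.7 in monocytes (2.33, SE 0.17), and Cd14, the coreceptor of endotoxin, 319 and 425 CPM in Kupffer cells, 73.2 and 102 in RLM and 106 and 102 in monocytes (2.09, SE 0.17). Treml4 and Naip5 were higher by 1.84 and 1.65. Tlr4 (0.40), Tlr2 (0.49) and Tlr9 (0.15) were not called. At Cd14 and Nlrc4 neither RLM library exceeded both monocyte libraries.

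Antigen presentation genes had 8 higher and 0 lower of 20 (8 and 0 by total tags). Cd40 had 126 and 122 CPM in Kupffer cells, 28.7 and 30.7 in RLM and 16.6 and 30.4 in monocytes (2.05, SE 0.21), the class II activator Ciita 95.9 and 92.5 CPM in Kupffer cells, 28.2 and 30.1 in RLM and 14.3 and 17.2 in monocytes (1.69, SE 0.18), and Mr1 and Cd80 were higher by 1.88 and 1.59. The class II genes H2-Aa, H2-Ab1 and H2-Eb1 were at 0.98, 0.83 and 0.78, short of 2-fold, with RLM libraries that differed from each other (H2-Eb1 at 187 and 139 CPM).

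Lysosome genes had 5 higher and 0 lower of 34 (0 and 2 by total tags). The higher share, 14.7%, was that of all genes (14.6%), whose calls also moved with the scaling. Lgmn, the protease legumain, had 906 and 1077 CPM in Kupffer cells, 423 and 374 in RLM and 173 and 199 in monocytes (1.32, SE 0.15), and Ctsc, Lipa and Ctsd were higher by 1.13, 1.25 and 1.04. Glycolysis and hypoxia genes had 3 higher and 3 lower of 29 (3 and 8 by total tags), with the hexokinase genes Hk2 (1.45) and Hk3 (1.36) on one side and Egln3 (-2.21) and Vegfa (-1.46) on the other. Vegfa was at -1.02 and not called without Kupffer cell replicate 2, as were Ctsc (0.96) and Ctsd (0.91). The cell cycle list had 4 genes higher and 3 lower out of 25 (3 and 4 by total tags). Cdkn1a, the inhibitor p21, had 74.0 and 62.2 CPM in Kupffer cells, 237 and 251 in RLM and 316 and 307 in monocytes (-1.85, SE 0.15), and Cdk1 was higher by 1.78. Neither of the last 2 lists had a share far from the 14.6% and 12.8% of all genes.

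**Figure D5:**
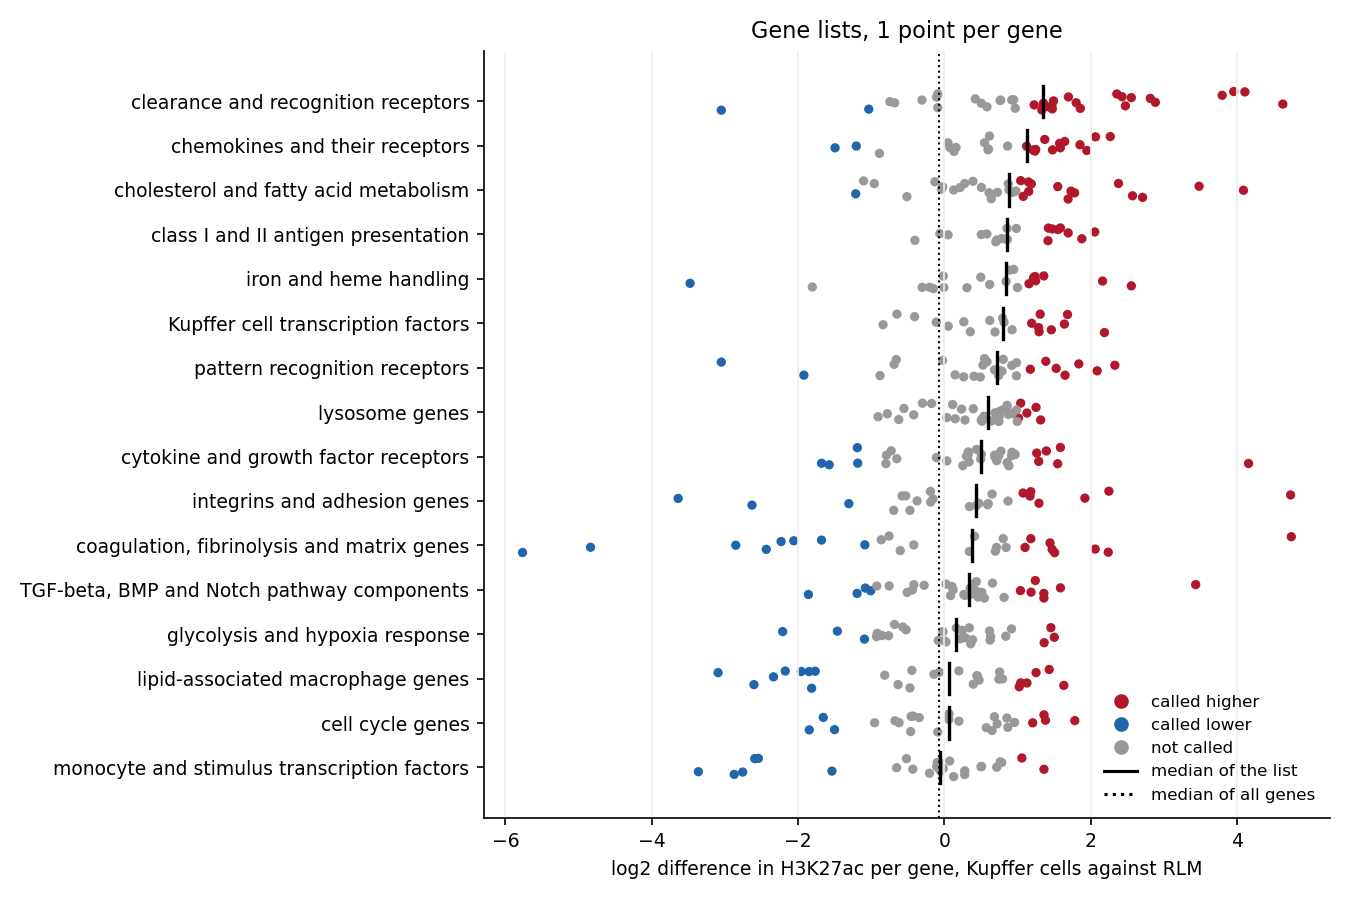
Log2 difference in H3K27ac per gene, Kupffer cells against RLM, for 16 gene lists, with 1 point per gene coloured by call, the median of each list as a bar and the median of all genes (-0.07) as a dotted line. Clearance receptors have the highest median (1.35), and the monocyte and stimulus factors have theirs at -0.06 with 6 genes called lower.

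The cell labels were set against markers, whose counts stand beside 14.6% higher and 12.8% lower of all genes. The C1q genes, typical of tissue macrophages, separated RLM from monocytes: C1qb had 73.9 and 83.3 CPM in Kupffer cells, 36.1 and 36.3 in RLM and 0.597 and 0.338 in monocytes (1.12, SE 0.19). Markers of Ly6C-high monocytes had 2 higher and 7 lower of 11, with summed levels of 642 and 622 CPM in Kupffer cells, 776 and 767 in RLM and 972 and 941 in monocytes. Fewer monocyte-like cells and less H3K27ac per cell cannot be told apart in such bulk samples. Among other liver cells, 5 of 12 hepatocyte markers were tested, with summed levels of 70.0 and 71.4 CPM in Kupffer cells and 27.9 and 27.2 in RLM. Ttr and Apoa2 were higher (2.48 and 1.67), and Alb was at 4.10 to 7.46 CPM in these 4 libraries. Endothelial markers summed to 170.2 and 146 CPM in Kupffer cells and 117 and 124 in RLM, with 2 higher (Stab2 and Cldn5) and 4 lower, and Tek and Ptprb, called lower, at 0.325 to 3.40 CPM. The calls of Tek, Ptprb and S100a9 were lost without Kupffer cell replicate 2 (-1.90, -2.43 and -1.73). Neutrophil markers had 3 higher and 4 lower of 11, with log2 differences from -2.04 to 2.49. They summed to 279 and 327 CPM in Kupffer cells and 150 and 132 in RLM, with S100a8 and S100a9 at 0.585 to 5.94. The markers of stellate cells, bile duct cells, T or NK cells, B cells and red cells or platelets summed to 24.6 to 213 CPM per library in these groups, with 0 to 2 genes called in either direction. Dendritic cell markers had 5 higher and 2 lower of 12, led by Xcr1 (2.36) and Batf3 (2.20), with the lowest member at -1.62. They summed to 1126 and 1279 CPM in Kupffer cells and 502 and 490 in RLM. The part of other cells in the differences was not tested.

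Binding sites of the factors named by the niche signals were set beside the calls. Peaks had been called by the authors in 2 libraries per factor, and a region was counted where a peak of both libraries had its centre in it. LXR peaks of Kupffer cells lay in 64.6% of higher regions, 12.7% of lower regions and 40.5% of regions not called. For SMAD4 in Kupffer cell nuclei the shares were 52.6%, 12.6% and 35.7%, and for RBPJ 14.9%, 3.55% and 11.2%. Peaks were also common at strong regions that were not called, a set cut by level where the higher regions were not. Among the 14196 uncalled regions whose Kupffer cell level reached the median of the higher regions, LXR peaks lay in 76.5%, SMAD4 peaks in 76.0% and RBPJ peaks in 3549 regions. Of 40263 regions with no peak of the 3 factors 11.9% were higher and 22.9% lower, and their median was 1.07 CPM in Kupffer cells. The 6842 regions with all 3 had 32.6% and 3.79% and a median of 24.1 CPM. The higher share was 15.1% of 601 regions with RBPJ alone and 25.1% of 5450 with SMAD4 alone. It was 34.7% of 9983 regions with LXR alone, 28.0% of 786 with LXR and RBPJ and 35.1% of 16398 with LXR and SMAD4. Among regions with an LXR peak it thus did not grow steadily with further factors. Without regard to level, higher and uncalled regions differed at distal regions. There LXR peaks were in 66.4% of higher, 28.4% of uncalled and 6.92% of lower regions. Uncalled distal regions whose Kupffer cell level reached the median of the higher regions numbered 2556. LXR peaks lay in 80.3% of them, SMAD4 peaks in 74.4% and RBPJ peaks in 29.9%. In all higher distal regions, with no cut by level, these shares were 66.4%, 52.5% and 15.0%. Since only the uncalled set was cut by level, no conclusion is drawn from the difference. At promoters of any level, the shares in higher, uncalled and lower regions were 64.8%, 66.0% and 34.4% for LXR. They were 62.1%, 65.9% and 40.4% for SMAD4 and 15.4%, 20.1% and 11.8% for RBPJ. By this count higher promoters held these peaks no more often than uncalled ones. With a peak of either library, LXR lay in 86.4% of higher and 86.2% of uncalled promoters and SMAD4 in 86.9% and 85.1%. Among the higher named promoters, Clec1b had an LXR peak and none of SMAD4 or RBPJ. Nr1d1, Tmem37, Il18bp and Il1a had LXR and SMAD4, and Zbtb4 had all 3. Of the lower named promoters, Gabpb1 and Fubp1 had LXR and SMAD4, and Epc1, Mir1893 and Efcab2 had all 3. Such peaks thus did not set the higher named promoters apart. The strongest Sdc3 region had none of the 3. The header of the second LXR peak list names an input library of another diet (NASH) than the ChIP library (control), and its effect on the LXR shares was not tested. These peaks were measured in resident Kupffer cells, and binding in RLM was not analysed here.

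Cultured macrophages gave a reading of Notch activation that shared no library with this comparison. In bone marrow-derived macrophages (BMDM) treated with the Notch ligand DLL4 for 24 h, 4.89% of 82089 tested regions were higher and 2.64% lower than in untreated BMDM. Of the 13389 BMDM regions that overlapped a region higher in Kupffer cells by at least 1000 bp, 10.3% were higher and 1.14% lower with DLL4. For 7980 overlapping a region lower in Kupffer cells the shares were 3.51% and 4.96%, and for 38504 overlapping uncalled regions 3.62% and 1.88%. The difference between these shares was not tested.

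Promoter sequence differed between the called classes in composition. Windows of 300 bases around annotated starts were matched to 1019 higher, 1217 lower and 8564 uncalled promoters. The median GC content was 58.3% in higher, 63.3% in lower and 61.3% in uncalled windows, and at least 10 CpG dinucleotides occurred in 63.8%, 80.8% and 86.9%. The Clec1b promoter printed above has 33.2% GC and 5 CpG, and that of Gabpb1 72.4% and 35. Motifs were searched on both strands. TGANTCA, the AP-1 site, occurred in 7.16% of higher, 5.51% of lower and 4.20% of uncalled windows, and in 7.81% of all promoters of the table. GAGGAAGT, of PU.1, occurred in 5.50%, 4.44% and 3.20% (3.20% of all), and GAAANTGAA, of interferon regulatory factors, in 3.34%, 1.31% and 1.63% (2.21% of all). TCACGTGA, bound by MiT/TFE factors, occurred in 1.18%, 0.657% and 2.24% (0.974% of all). The nuclear receptor half-site AGGTCA was in 132 of the 1019 higher windows, 9.78% of lower and 11.4% of uncalled ones (16.3% of all), the RUNX site TGTGGT in 13.5%, 12.5% and 12.3% (16.8%), and the RBPJ core TGGGAA in 26.6%, 22.7% and 22.4% (25.6%). The SMAD letters CAGACA occurred in 15.9%, 15.2% and 14.5% (21.0%) and GTCTAGAC in 0.294%, 0.164% and 0.245% (0.213%). TGCTGAC, part of the MAF site, occurred in 4.42%, 3.86% and 3.23% (4.67%), and TTGCGCAA, of C/EBP factors, in 0.589%, 0.247% and 0.315% (0.183%). In the printed sequences, Tmem37 holds the AP-1 letters, F10 the half-site and Gpnmb the RUNX letters, each once, and the others hold none of the motifs. A match is a description of letters and does not show binding.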

How the data were processed

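H3K27ac was measured by ChIP-seq on formaldehyde-fixed cells. The authors deposited raw tag counts per region of 2000 bp, with neighbours that can overlap, and the peak lists give a normalized tag count, a signal that the deposited files state as tags per 10 M. Bowtie2, HOMER and mm10 are named in the submitters' processing notes. Groups came from the sample titles. Peaks of LXR, SMAD4 and RBPJ had been called at a false discovery rate of 0.001 and 4-fold over input, per the file headers. The 6 libraries of the H3K27ac table (7.37 to 19.5 M tags) shared 1 edgeR 4.0.16 fit in R 4.3.3 (TMM, filterByExpr, robust quasi-likelihood, Benjamini-Hochberg adjustment), tested on simulated data, where folds came back unbiased and false calls were rare but many true changes were missed; a first requirement for high recovery was not met and was dropped. A call needed adjusted p under 0.05 and 2-fold. Levels are CPM.

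The members, lists and rules were chosen with earlier results of these data known. Named regions are, per direction, the 6 promoters (within 1 kb) and 6 distal regions (over 3 kb) with the largest difference in CPM, the 5 longest runs, the 8 genes with most regions called both ways, and the 4 called genes per list with the largest change, besides genes whose role the text describes. The promoters and distal regions were taken only from called regions whose Kupffer cell and RLM libraries do not overlap. Genes described by their level relative to monocytes were chosen after their values were seen. Lists held 450 genes (439 with a region) and markers 144 (109). Alternatives covered DESeq2 1.42.0, scaling, the count filter, 4 libraries, each library left out, a replicate block, overlapping regions, satellites and depth. Items withheld by rule, among them a named region, are not reported here, though counts include them.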

Additional observations from a re-analysis of the deposited data

How the results depend on the processing

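Of 136 named regions and genes, 116 kept their call under every alternative that could be run on them, and none reversed direction. The 136 were 40 regions (promoters, distal regions and examples of genes called both ways) and 96 genes, the 4 most changed called genes per list or marker set. Other genes and the runs named in the text were not part of this count. Most of the calls lost fell away where 1 library was left out, 14 of them without Kupffer cell replicate 2. Leaving out each library in turn gave 14017 to 17870 higher and 5332 to 9315 lower regions, and 2228 to 2768 higher and 1172 to 2030 lower genes. The lowest counts came without Kupffer cell replicate 2, which holds most of the Kupffer cell tags. Dropping overlapping regions left 11120 higher and 6406 lower regions, with fewer regions tested (52877). Scaling by total tags gave 1549 higher and 3528 lower genes, and the cause was not tested. Counting only regions with a mean of at least 5 CPM in the higher group, chosen after seeing the data, left 3034 lower regions and 16009 higher ones. The other alternatives stayed within 1.5 times, among them DESeq2 (16177 and 7850 regions) and thinning to the shallowest library (15957 and 10595). Across the other alternatives no called region turned to a call in the opposite direction, and of the genes 4 did when overlapping regions were dropped. Replicate numbers did not pair the groups (correlation of deviations between Kupffer cells and RLM -0.02), and a replicate block gave 17928 higher and 10699 lower regions and 2435 and 2117 genes. Counting a peak of either library, or an overlap of 1 bp with BMDM regions, kept the order of the classes given in the text for all regions and distal regions, and at promoters the higher share of LXR and SMAD4 then lay slightly above the uncalled one. The 6 and 10 tags at the median lower region limit what can be said of single weak regions.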

Other observations

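Genes of the circadian clock were looked at after Nr1d1 had appeared among the strongest promoters, so the list was chosen after its values were seen. Of 17 tested genes, Kupffer cells had more H3K27ac at 4 and less at 4 (2 and 5 when scaled by total tags), against 14.6% and 12.8% of all genes. Per2, a repressor of the clock, had 192 and 188 CPM in Kupffer cells, 20.1 and 34.5 in RLM and 26.2 and 34.6 in monocytes (log2 difference 2.79, SE 0.21). Dbp, an output factor, had 338 and 525 CPM against 203 and 179 in RLM (1.18, SE 0.17), Nr1d1 was higher by 1.75 (SE 0.16) and Per3 by 1.22 (SE 0.23). Nfil3, which opposes Dbp at shared sites, had 60.3 and 22.9 CPM in Kupffer cells, 223 and 246 in RLM and 670.3 and 761 in monocytes (-2.54, SE 0.35). Clock was also lower (-1.09, SE 0.17), as were Rora (-3.10, SE 0.37) and Hlf (-1.55, SE 0.62), the last 2 at under 12 CPM in each of the 4 libraries. Arntl, Cry2, Nr1d2 and Tef were not called (0.45, 0.06, 0.29 and 0.40). The 2 Kupffer cell libraries did not overlap RLM at Per2, Dbp or Nfil3, as was the case for 76.8% of all genes.

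Calls were spread over the chromosomes. The share of regions higher in Kupffer cells ran from 18.2% on chromosome X to 26.3% on chromosome 16, and that of lower regions from 9.47% on chromosome X to 16.1% on chromosome 5. All 6 libraries had tags in the 24 regions of the Y chromosome, 219 to 345 tags per M of tags. Regions whose centre lay in a LINE element had 27.9% higher and 14.2% lower. Regions without a repeat annotation had 22.3% and 13.7%, so the higher share was larger in LINE elements, a difference that was not tested. Of 21 regions in ribosomal RNA repeats 8 were lower and 2 higher.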
